A study of Mus musculus with 21 samples.

Results

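The genes described here are the aminoacyl-tRNA synthetases, the enzymes that join each amino acid to its tRNA, in mouse muscle stem cells from mice with and without an injury to the opposite limb. A list of 36 genes was used, 20 for cytosolic enzymes and 16 for mitochondrial ones, whose symbols end in 2. Of these, 34 (18 cytosolic and 16 mitochondrial) could be read from a probeset with exactly 1 gene symbol, among 19938 such genes in the whole data set. Aars shares its probeset with Exosc6 and was not tested as a member, and Mars is listed under its newer name Mars1. Genes whose mean over all pools lay under log2 6.45, the 30th percentile, were left out of the tests. Pars2 alone among the members fell under that limit, which left 33 tested members (18 cytosolic and 15 mitochondrial) among 13956 tested genes. Where a gene had several probesets the brightest stood for it. Iars was the member with several, and its 2 probesets gave differences of 0.26 and 0.20 between WT CSC and WT QSC.

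RNA was measured on 21 Affymetrix Mouse Gene 1.0 ST arrays, and all values below are log2 signals. The cells were sorted as YFP-positive cells of hindlimb muscle and were not cultured. CSC are cells of the limb contralateral to a barium chloride injury, and QSC are cells of mice without injury. The study asks how a distant injury alters resting stem cells and what the kinase complex mTORC1 and the growth factor receptor cMet contribute.

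Every animal carried Pax7CreER/+;Rosa26REYFP/+, was 3 to 5 months old and had received tamoxifen at least 2 weeks before, so that recombination was driven in Pax7-expressing cells alone. The Rptor KO CSC group (2.5 days after injury) and the Rptor KO QSC group added Rptrflox/flox, which removes raptor, a subunit that mTORC1 needs. The cMet KO CSC group (2.5 days) and the cMet KO QSC group added cMetflox/flox. The TSC1 KO QSC group added TSC1flox/flox, which removes an inhibitor of mTORC1. The WT CSC groups, 28 and 2.5 days after injury, and the WT QSC group had no floxed gene. The labelled strain was mixed C57BL6, except for both cMet KO groups, whose label adds FVB, so that strain and genotype cannot be told apart there. Each of the 12 pools held cells of 3 to 4 mice. WT CSC at 2.5 days and WT QSC had 3 pools each, labelled as biological replicates, and each of the other 6 groups had 1 pool on 2 arrays. For these 6 groups no spread could be measured: the tests borrow that of the WT pools, and what is peculiar to the pool cannot be told apart from its genotype or time.

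Each amino acid has its own synthetase, and the enzymes fall into 2 structural classes. Most amino acids are served by separate nuclear genes for the cytosol and for mitochondria, whereas Kars and Gars each encode both forms. Several cytosolic enzymes sit together in a multi-synthetase complex held by scaffold proteins. Cells that grow need more charged tRNA, and in mammalian cells the transcription factor ATF4, which acts when amino acids run short and also downstream of mTORC1, is known to bind many cytosolic synthetase genes. Resting muscle stem cells make little protein, and activation brings a rise in cell size, mitochondrial activity and protein synthesis.

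Defining markers of muscle stem cells were present in every pool: over the 12 pools Pax7 ranged between 10.26 and 12.10, Vcam1 between 11.84 and 12.65, and the mean over 15 markers lay between 10.92 and 11.91. Array medians ran from 7.03 to 7.21, and arrays of the same pool correlated at 0.973 to 0.998. Members differed between the 2 arrays of a pool by a median of 0.048 to 0.179, and by 0.70 at most (Cars2 in WT CSC pool 1). The whole-gene probesets need not lie in the deleted exons and gave no clear check of the knockouts. Tsc1 read 8.16 in the TSC1 KO QSC pool and 8.66, 8.34 and 8.69 in WT QSC pools. Rptor read 8.85 in the Rptor KO CSC pool and 9.84, 9.47 and 9.43 in WT CSC pools, but 9.19 in the Rptor KO QSC pool and 9.58, 8.91 and 9.29 in WT QSC pools. Met read 10.13 in the cMet KO CSC pool and 10.94, 10.63 and 10.84 in WT CSC pools, but 10.25 in the cMet KO QSC pool and 9.93, 10.11 and 9.997 in WT QSC pools. None of these differences passed the test (adjusted p = 0.641 for Tsc1, 0.180 and 0.961 for Rptor, 0.0662 and 1.00 for Met).

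At 2.5 days after a distant injury, synthetase genes of both compartments were higher in WT CSC than in WT QSC. Of the 18 cytosolic members 8 rose (Kars, Vars, Rars, Mars1, Wars, Farsb, Gars and Qars), and of the 15 tested mitochondrial members 5 rose (Sars2, Tars2, Rars2, Iars2 and Yars2). No member fell. The median difference was 0.45 over the cytosolic and 0.32 over the mitochondrial members, against -0.05 over all tested genes. The test was limma with Benjamini-Hochberg adjustment over all 13956 genes, at an adjusted p under 0.05. By the same test 18% of all genes changed, 10.6% higher and 7.36% lower. The number of calls was lower with a WT CSC pool left out. Without WT CSC replicate 1, 2 or 3 the fit called 3, 3 and 2 cytosolic and 2, 1 and 2 mitochondrial members. Over all genes these fits called 867, 890 and 846 higher, against 1483 with every pool. Without WT QSC replicate 2 the fit called 3 mitochondrial members, and 1226 of all genes were higher. Kars and Sars2 passed in every one of the 16 alternative analyses.

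**Figure D1:**
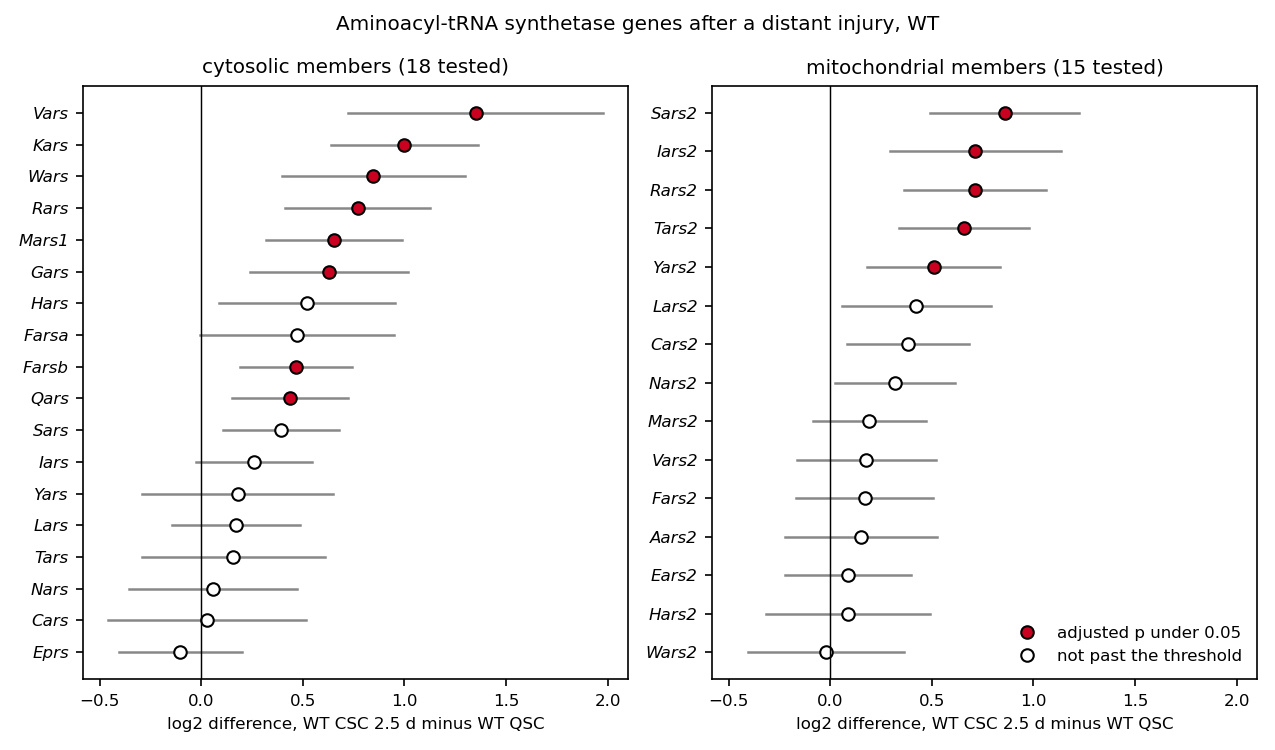
Log2 difference, WT CSC at 2.5 days minus WT QSC, for the 18 cytosolic (left) and 15 mitochondrial (right) synthetase genes tested. Points are limma estimates, bars are 95% confidence intervals, and filled points passed an adjusted p of 0.05. All filled points lie right of 0, Vars farthest at 1.35, and Eprs and Wars2 alone lie left of 0.

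Kars makes the lysyl-tRNA synthetase of both compartments. It read 9.83, 9.79 and 9.81 in the WT CSC pools, against 8.998, 8.48 and 8.96 in the WT QSC pools. The groups lay far apart, and the difference was 1.00 ± 0.16 (SE, n = 3 pools each), or 2.00-fold (limma adjusted p = 0.00388). Vars, the valyl enzyme, read 10.50, 10.41 and 10.13 in WT CSC pools, against 9.40, 8.27 and 9.31 in WT QSC pools. This was the largest difference of all members, 1.35 ± 0.28 or 2.55-fold (adjusted p = 0.0117), with WT QSC pool 2 more than 1 unit under the other WT QSC pools. Rars, the arginyl enzyme of the multi-synthetase complex, read 11.24, 11.27 and 11.38 in WT CSC pools and 10.26, 10.52 and 10.81 in WT QSC pools. The ranges were apart, and the difference was 0.77 ± 0.16 (adjusted p = 0.0117). Mars1 charges methionine, also onto the initiator tRNA that starts proteins made in the cytosol. Its levels were 9.87, 10.04 and 9.94 in WT CSC pools, against 9.46, 9.04 and 9.39 in WT QSC pools, again without overlap, and it rose by 0.65 ± 0.15 (adjusted p = 0.0172). Wars, the tryptophanyl enzyme, also known as an interferon-induced gene, read 9.76, 9.52 and 9.53 in WT CSC pools and 9.02, 8.30 and 8.94 in WT QSC pools. All WT CSC pools were above all WT QSC pools, by 0.85 ± 0.20 (adjusted p = 0.0200).

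The other 3 cytosolic members that rose did so by less. Farsb, the beta subunit of phenylalanyl-tRNA synthetase, read 9.71, 9.56 and 9.50 in WT CSC pools, against 9.13, 9.15 and 9.10 in WT QSC pools. Its WT QSC pools were almost equal, and the difference was 0.47 ± 0.12 (adjusted p = 0.0304). The alpha subunit of the same enzyme, Farsa, differed by 0.47 ± 0.21 and did not pass (adjusted p = 0.160), with WT CSC pools at 9.17, 9.27 and 9.03 and WT QSC pools at 8.94, 8.17 and 8.95. Gars makes the glycyl enzyme of both compartments. Its WT CSC pools read 11.06, 11.47 and 11.28, against 10.47, 10.52 and 10.94 in WT QSC pools, a narrow gap with a difference of 0.63 ± 0.17 (adjusted p = 0.0357). Qars, the glutaminyl enzyme, read 10.34, 10.30 and 10.37 in WT CSC pools and 10.05, 9.79 and 9.85 in WT QSC pools. It rose by 0.44 ± 0.13 (adjusted p = 0.0424), passed in 6 of 16 alternative analyses, and is the least secure call among the cytosolic members.

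Among the mitochondrial enzymes Sars2, which charges serine, had the largest difference. It read 8.35, 8.23 and 8.22 in WT CSC pools, against 7.59, 7.08 and 7.56 in WT QSC pools, 0.86 ± 0.16 or 1.81-fold higher (adjusted p = 0.00808). Tars2, the threonyl enzyme, read 8.88, 9.15 and 9.01 in WT CSC pools and 8.47, 8.17 and 8.42 in WT QSC pools. The lowest WT CSC pool was above the highest WT QSC pool, and the difference was 0.66 ± 0.14 (adjusted p = 0.0139). Rars2, the arginyl enzyme, read 8.68, 8.44 and 8.36 in WT CSC pools and 7.81, 7.56 and 7.98 in WT QSC pools, 0.71 ± 0.15 higher without overlap (adjusted p = 0.0149). Iars2, the isoleucyl enzyme, read 9.57, 9.20 and 9.22 in WT CSC pools, against 8.98, 8.45 and 8.41 in WT QSC pools. WT QSC pool 1 came near the WT CSC pools, and the difference was 0.71 ± 0.19 (adjusted p = 0.0298). Yars2, the tyrosyl enzyme, read 8.96, 9.22 and 9.20 in WT CSC pools and 8.51, 8.52 and 8.82 in WT QSC pools. It rose by 0.51 ± 0.14 (adjusted p = 0.0400) and passed in 7 of 16 alternative analyses.

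Further mitochondrial members were apart in all pools without passing the test. Cars2, the cysteinyl enzyme, read 8.46, 8.27 and 8.29 in WT CSC pools and 8.11, 7.82 and 7.95 in WT QSC pools (difference 0.38 ± 0.13, adjusted p = 0.0784). Lars2, the leucyl enzyme, read 8.02, 7.67 and 7.76 in WT CSC pools, against 7.59, 7.13 and 7.45 in WT QSC pools (0.42 ± 0.16, adjusted p = 0.104). Nars2, the asparaginyl enzyme, read 8.04, 7.98 and 7.83 in WT CSC pools, against 7.71, 7.69 and 7.49 in WT QSC pools (0.32 ± 0.13, adjusted p = 0.129). Pars2, the prolyl enzyme left out for its low signal, read 6.79, 6.78 and 6.91 in WT CSC pools and 6.23, 5.90 and 6.39 in WT QSC pools. With no filter on dim genes its difference was 0.66 ± 0.15 (adjusted p = 0.0272).

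Other members did not pass the test. Nars, the asparaginyl enzyme, read 11.32, 11.92 and 11.85 in WT CSC pools and 11.45, 11.74 and 11.73 in WT QSC pools, a difference of 0.06 ± 0.18. Cars, the cysteinyl enzyme, read 10.15, 10.80 and 10.39 in WT CSC pools and 10.23, 10.21 and 10.81 in WT QSC pools, a difference of 0.03 ± 0.21. Eprs, which charges both glutamate and proline, read 10.80, 11.08 and 11.03 in WT CSC pools and 10.96, 11.13 and 11.14 in WT QSC pools. Eprs was the only cytosolic member with a negative difference, -0.10 ± 0.13 (95% interval -0.41 to 0.20), and Wars2 the only mitochondrial one, -0.02 ± 0.17. In these 4 genes the pools of both groups overlapped. The remaining cytosolic differences ran from 0.16 for Tars, through 0.17 for Lars, 0.18 for Yars and 0.26 for Iars, to 0.39 for Sars and 0.52 for Hars. The remaining mitochondrial ones were 0.09 for Ears2 and Hars2, 0.15 for Aars2, 0.17 for Fars2, 0.18 for Vars2 and 0.19 for Mars2. In Hars, Sars, Iars and Mars2 all WT CSC pools lay above all WT QSC pools, although none of these genes passed. An interval that includes 0 does not show that a gene was equal in both groups: the interval for Tars, for example, ran from -0.29 to 0.61.

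Of the 34 measured members, 22 had all WT CSC pools above all WT QSC pools, against 18.7% of all tested genes. For 17 members, 10 cytosolic and 7 mitochondrial, the 3 WT CSC pools at 2.5 days were the 3 highest of all 12 pools, against 12.2% of all genes. Pars2 is in both counts. Here and below the 34 members include Pars2, whereas shares of all genes are over tested genes alone. The spread between pools was like that of genes in general: the median SD over pools was 0.14 in WT CSC and 0.24 in WT QSC for cytosolic members, and 0.13 and 0.21 for all genes. WT QSC pool 2 was the lowest WT QSC pool for 22 members, against 50.4% of all genes. WT CSC pool 1 was the lowest WT CSC pool for 11 of 18 cytosolic members and for 3 of 16 mitochondrial members, against 31.3% of all genes.

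**Figure D2:**
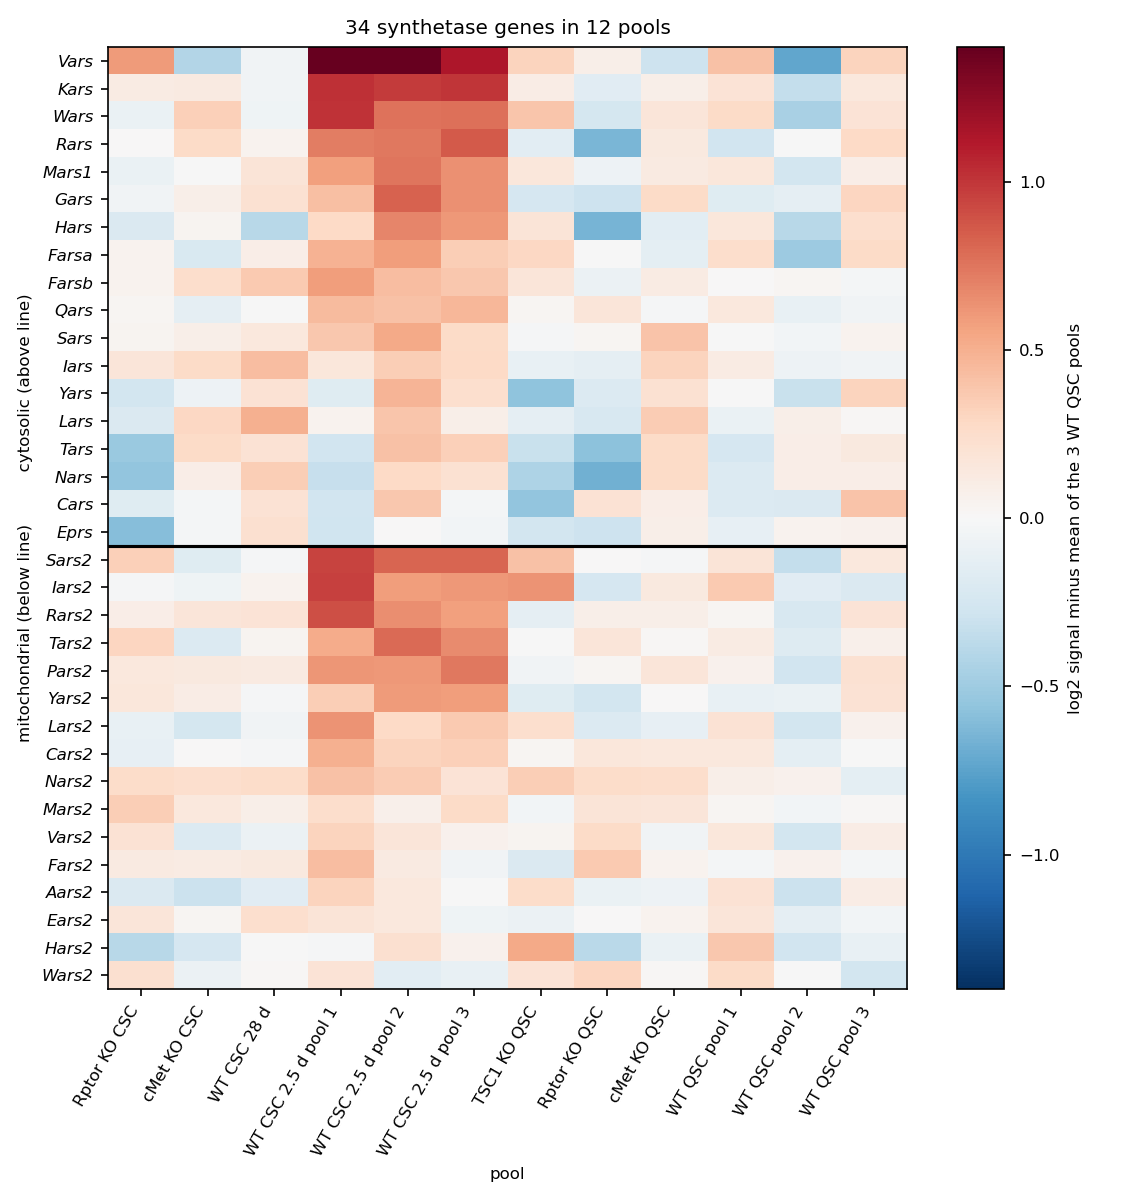
Deviation of each pool (columns) from the mean of the 3 WT QSC pools, in log2 units, for 34 synthetase genes (rows), cytosolic above the line and mitochondrial below it, each ordered by the WT difference. The 3 WT CSC pools at 2.5 days form a red block in the upper rows of each part, and the single pools at 28 days and of the Rptor and cMet knockouts are paler there.

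Members that rose came from each group of enzymes. By the same test 10.6% of all genes were higher. Of the 7 measured synthetases of the multi-synthetase complex 4 rose (Kars, Rars, Mars1 and Qars), with a median difference of 0.44, and Eprs, Iars and Lars did not pass. Of 9 class I cytosolic enzymes 5 rose (median 0.44), and of 8 class II enzymes and subunits 3 rose (median 0.47). Eprs, which holds an enzyme of each class, was not counted in either. Among the 14 pairs of a cytosolic gene and the mitochondrial gene for the same amino acid, both rose in 1 pair, Rars and Rars2. Fars2 stands both in the pair of Farsa and in that of Farsb. The cytosolic gene alone passed in 4 pairs (Farsb, Mars1, Vars and Wars), the mitochondrial gene alone in 4 pairs (Iars2, Sars2, Tars2 and Yars2), and neither in 5. Vars differed by 1.35 and Vars2 by 0.18, whereas Tars differed by 0.16 and Tars2 by 0.66. The difference between partners was not tested.

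The promoters of members were searched for TGATGNAA on both strands, the core of the element at which C/EBP and ATF proteins bind together, in RefSeq sequences from 250 bases before to 50 bases after the annotated start (GRCm38.p6). Of the 36 listed genes 27 had such a sequence. The motif was present in 5 of 13 cytosolic members (Aars, Gars, Iars, Tars and Yars, or 38.5%), in 0 of 14 mitochondrial members, and in 4.51% of 27025 genes. A match is a run of letters and not a shown binding site. The windows around the matches in the 4 measured members are given with that of Asns, the asparagine synthetase gene known for such an element. Each is written in the direction of its gene with the match in capitals, TGATGNAA itself or, where it lies on the opposite strand, its reverse complement.
Gars, chr6:55037945-55038004, plus strand: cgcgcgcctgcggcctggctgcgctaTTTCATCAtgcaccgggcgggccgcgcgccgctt
Iars, chr13:49682111-49682170, plus strand: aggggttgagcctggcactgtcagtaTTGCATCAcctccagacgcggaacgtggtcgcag
Tars, chr15:11399640-11399699, minus strand: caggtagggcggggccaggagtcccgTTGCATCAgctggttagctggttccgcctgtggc
Yars, chr4:129189880-129189939, plus strand: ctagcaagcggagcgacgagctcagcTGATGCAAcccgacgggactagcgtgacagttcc
Asns, chr6:7693199-7693258, minus strand: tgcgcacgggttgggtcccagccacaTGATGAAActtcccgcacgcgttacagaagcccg

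Of the 4 tested cytosolic members with a match, Gars rose in WT CSC, and Iars, Tars and Yars, at 0.26, 0.16 and 0.18, did not pass. Of the 7 tested cytosolic members searched without a match, 4 rose (Farsb, Kars, Mars1 and Qars). Rars, Vars and Wars, which also rose, had no promoter sequence and were not searched, nor were Cars, Hars, Lars and Nars. Whether the motif goes with the rise was not tested. The whole searched promoter of Kars, the cytosolic member with the smallest adjusted p, holds no match on either strand and is given for comparison.
Kars, chr8:112011305-112011604, minus strand: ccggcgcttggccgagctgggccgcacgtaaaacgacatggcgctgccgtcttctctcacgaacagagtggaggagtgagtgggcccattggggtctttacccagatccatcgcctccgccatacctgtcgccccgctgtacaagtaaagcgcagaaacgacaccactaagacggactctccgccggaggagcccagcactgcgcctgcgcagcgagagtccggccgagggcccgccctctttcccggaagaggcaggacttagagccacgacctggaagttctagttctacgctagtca
The absence of these letters from this window says nothing of sites elsewhere in the gene.

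At 28 days after injury no synthetase gene differed from WT QSC past the threshold. In this comparison limma called 0% of all genes, and 2 cytosolic and 0 mitochondrial members had an unadjusted p under 0.05, against 4.56% of all genes. The median difference was 0.19 over cytosolic and 0.01 over mitochondrial members. The largest cytosolic difference was that of Lars, the leucyl enzyme, which read 10.20 in the 28-day pool and 9.60, 9.78 and 9.71 in WT QSC pools (0.50 ± 0.20, adjusted p = 0.999). The largest mitochondrial one was that of Nars2, at 7.89 in the 28-day pool and 7.71, 7.69 and 7.49 in WT QSC pools (0.26 ± 0.18, adjusted p = 0.999). For Lars and Nars2 alike the single 28-day pool lay above all WT QSC pools, and neither difference passed.

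Set against WT CSC at 2.5 days, the 28-day pool was lower in Kars and Sars2. Kars read 8.76 in the 28-day pool, against 9.83, 9.79 and 9.81 in the 2.5-day pools, and fell by 1.05 ± 0.23 on the log2 scale (adjusted p = 0.0249). Sars2 read 7.39, against 8.35, 8.23 and 8.22, and fell by 0.88 ± 0.23 (adjusted p = 0.0494). Vars had the largest difference, -1.41 ± 0.39, with 8.94 at 28 days and 10.50, 10.41 and 10.13 at 2.5 days, and did not pass (adjusted p = 0.0607). By the same rule 8.38% of all genes changed and 6.32% were lower. The median difference was -0.31 for both compartments. The 28-day pool lay below all WT CSC pools of 2.5 days for 11 cytosolic and 10 mitochondrial of 34 members, against 34.8% of all genes. The calls for Kars and Sars2 were both lost when WT CSC replicate 1, 2 or 3 was left out. This comparison shares the 2.5-day pools with the WT difference above, so members that were high in those pools appear in both.

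**Figure D3:**
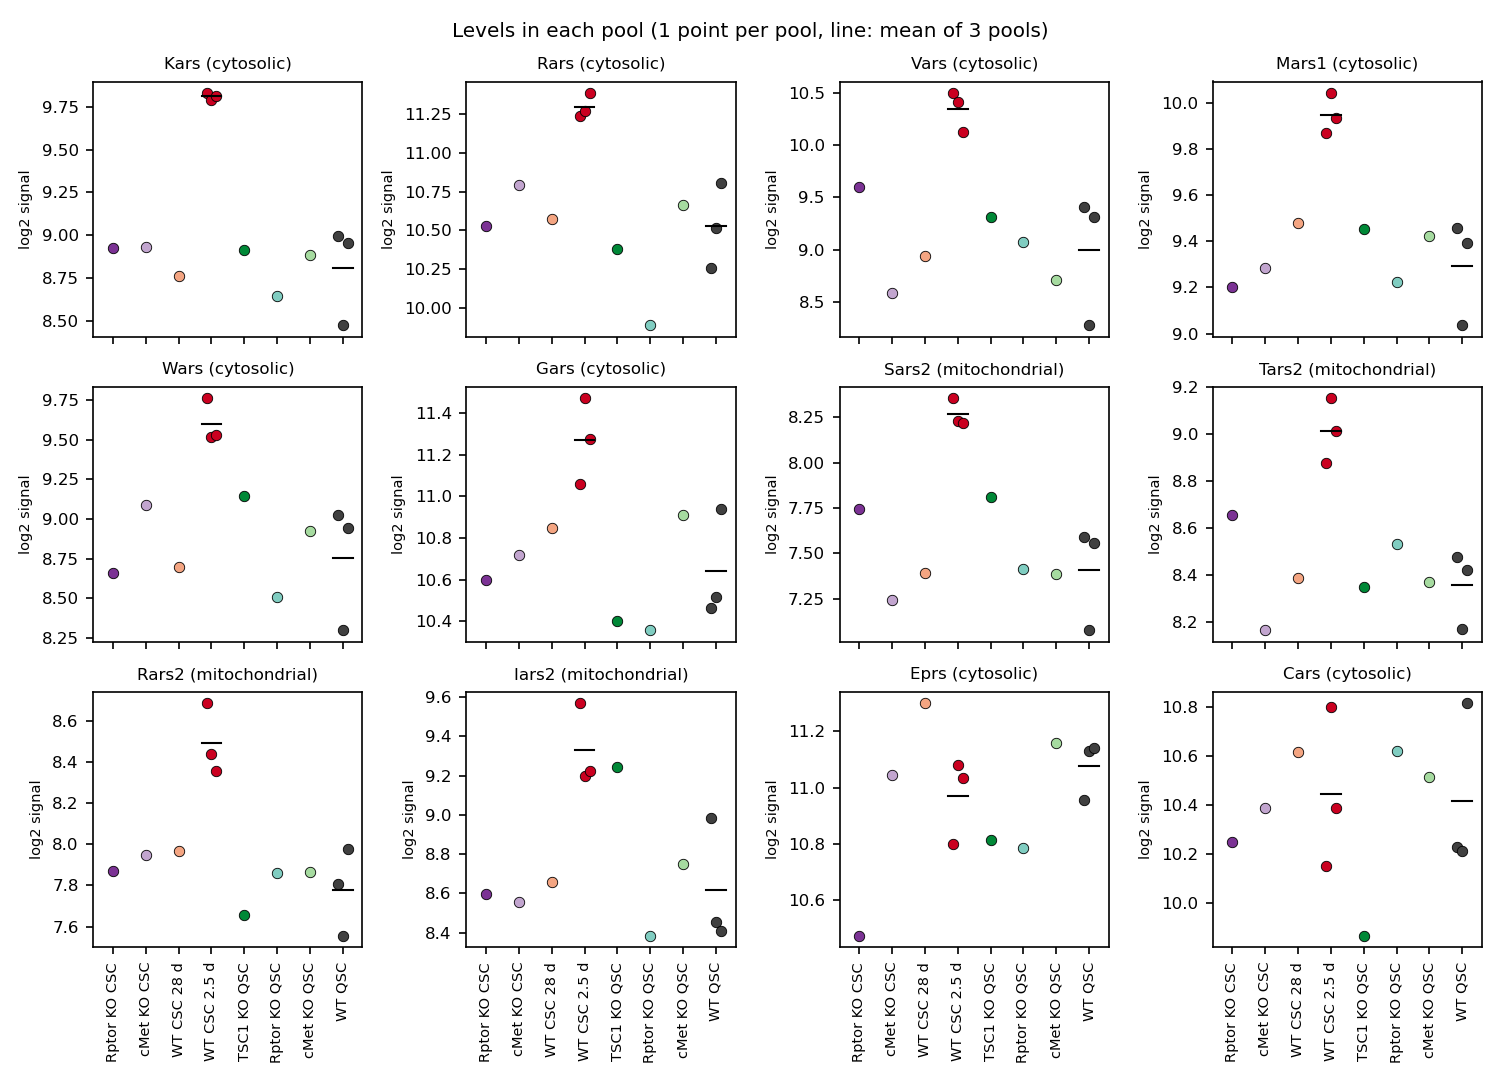
Log2 signal of 12 synthetase genes in every pool, 1 point per pool, with the mean of 3 pools as a line where a group has 3. The axes do not start at 0 and differ between panels. In the panels from Kars to Iars2 the WT CSC pools of 2.5 days lie above all WT QSC pools, and in the Eprs and Cars panels they overlap them.

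In cells without injury no knockout moved a member past the threshold. In TSC1 KO QSC against WT QSC 0.0143% of all genes were called, and 0 cytosolic and 1 mitochondrial members had an unadjusted p under 0.05, against 8.82% of all genes. The median difference was -0.06 over cytosolic and 0.04 over mitochondrial members. The TSC1 KO QSC pool lay within the range of the WT QSC pools for 14 of 34 members, above it for 9 and below it for 11. Over all genes these shares were 46.5%, 30.3% and 23.2%. Iars2 read 9.24 in the TSC1 KO QSC pool, close to the WT CSC pools at 9.57, 9.20 and 9.22, and above 8.98, 8.45 and 8.41 in WT QSC pools (0.63 ± 0.26, adjusted p = 0.552). Yars, the cytosolic tyrosyl enzyme, read 10.04 in the TSC1 KO QSC pool and 10.60, 10.29 and 10.92 in WT QSC pools (-0.56 ± 0.29, adjusted p = 0.602). Kars at 8.92 was within its WT QSC range and Sars2 at 7.81 was above its own.

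In Rptor KO QSC against WT QSC 0.122% of all genes were called and no member was. The cytosolic median was -0.18, with 14 of 18 members negative, and the mitochondrial median was 0.08. An unadjusted p under 0.05 was found for 3 cytosolic and 0 mitochondrial members, against 11.3% of all genes. Rars read 9.89 in the Rptor KO QSC pool, below 10.26, 10.52 and 10.81 in WT QSC pools (-0.64 ± 0.22, adjusted p = 0.315). Nars read 10.97, against 11.45, 11.74 and 11.73 in WT QSC pools, the largest cytosolic difference at -0.67 ± 0.26 (adjusted p = 0.368). Hars2, the mitochondrial histidyl enzyme, read 7.17, against 7.92, 7.28 and 7.45 in WT QSC pools (-0.38 ± 0.25, adjusted p = 0.636). These 3 values were each below their whole WT QSC range. That held for 12 of 34 members in this pool, 9 cytosolic and 3 mitochondrial, against 26.5% of all genes. The pool lay above the range for 1 cytosolic and 7 mitochondrial members, against 24.9% of all genes.

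TSC1 and raptor act on mTORC1 in opposite directions, so their knockouts were also set against each other. Of all genes 1.55% were called between TSC1 KO QSC and Rptor KO QSC, and 0 members were. An unadjusted p under 0.05 was found for 1 cytosolic and 2 mitochondrial members, against 19% of all genes. The cytosolic median was 0.23, with 14 of 18 members higher in the TSC1 KO pool, and the mitochondrial median was -0.09. Hars, the cytosolic histidyl enzyme, read 9.24 in TSC1 KO QSC and 8.40 in Rptor KO QSC (0.84 ± 0.33, adjusted p = 0.215). Hars2 read 8.08 in TSC1 KO QSC and 7.17 in Rptor KO QSC (0.91 ± 0.31, adjusted p = 0.160). Each of these values is a single pool against a single pool.

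For cMet KO QSC against WT QSC 0% of all genes were called, 0 members had an unadjusted p under 0.05 (1.33% of all genes did), and the medians were 0.13 and 0.01. The largest cytosolic difference was that of Sars, the seryl enzyme, at 10.50 in the cMet KO QSC pool and 10.10, 10.06 and 10.15 in WT QSC pools (0.40 ± 0.18, adjusted p = 1.00). The largest mitochondrial one was that of Nars2, at 7.88 in the cMet KO QSC pool and 7.71, 7.69 and 7.49 in WT QSC pools (0.25 ± 0.18, adjusted p = 1.00). For 25 of 34 members the cMet KO QSC pool lay within the WT QSC range, against 71.2% of all genes. The comparisons of the 28-day, TSC1 KO, Rptor KO and cMet KO pools with WT QSC share its 3 pools.

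After injury, no synthetase gene passed the test within either knockout. In Rptor KO CSC against Rptor KO QSC 0.258% of all genes were called, and the medians were 0.09 over cytosolic and 0.01 over mitochondrial members, each a single pool against a single pool. Rars had the largest cytosolic difference, 10.53 in Rptor KO CSC and 9.89 in Rptor KO QSC (0.64 ± 0.27, adjusted p = 0.981), and it alone had an unadjusted p under 0.05, against 5.06% of all genes. Yars2 had the largest mitochondrial one, 8.78 in Rptor KO CSC and 8.36 in Rptor KO QSC (0.42 ± 0.25, adjusted p = 0.999). Kars read 8.92 in Rptor KO CSC and 8.65 in Rptor KO QSC, and Vars read 9.59 in Rptor KO CSC and 9.07 in Rptor KO QSC. In cMet KO CSC against cMet KO QSC 0% of all genes were called, and 0 members had an unadjusted p under 0.05, against 0.537% of all genes. The medians were -0.09 and -0.13. Sars had the largest cytosolic difference, 10.18 in cMet KO CSC and 10.50 in cMet KO QSC (-0.32 ± 0.22, adjusted p = 1.00). Aars2, the mitochondrial alanyl enzyme, had the largest mitochondrial one, 7.04 in cMet KO CSC and 7.26 in cMet KO QSC (-0.22 ± 0.29, adjusted p = 1.00). Kars read 8.93 in cMet KO CSC and 8.89 in cMet KO QSC, and Vars read 8.58 in cMet KO CSC and 8.71 in cMet KO QSC.

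Compared directly with WT CSC at 2.5 days, the Rptor KO CSC pool gave a negative difference for all 18 cytosolic members, with a median of -0.55, and for 11 of 15 mitochondrial members, with a median of -0.36. No single member passed, whereas 3.9% of all genes did, 2.97% lower. An unadjusted p under 0.05 was found for 11 cytosolic and 5 mitochondrial members, against 19.8% of all genes. Kars read 8.92 in the Rptor KO CSC pool, against 9.83, 9.79 and 9.81 in WT CSC pools (-0.88 ± 0.23, adjusted p = 0.0670). Wars had the largest difference, at 8.66 in the Rptor KO CSC pool and 9.76, 9.52 and 9.53 in WT CSC pools (-0.94 ± 0.28, adjusted p = 0.104). Mars1 and Rars differed by -0.75 (adjusted p = 0.0864) and -0.77 (adjusted p = 0.0972). Among the mitochondrial members Iars2 differed most, at 8.60 in the Rptor KO CSC pool and 9.57, 9.20 and 9.22 in WT CSC pools (-0.73 ± 0.26, adjusted p = 0.163). The Rptor KO CSC pool lay below all WT CSC pools for 16 cytosolic and 10 mitochondrial members, against 38.3% of all genes.

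The cMet KO CSC pool was lower than WT CSC in 3 members. Vars read 8.58 in the cMet KO CSC pool, against 10.50, 10.41 and 10.13 in WT CSC pools, and fell by 1.76 ± 0.39, or 3.39-fold (adjusted p = 0.0329). Sars2 read 7.24, against 8.35, 8.23 and 8.22 in WT CSC pools, and fell by 1.02 ± 0.23 (adjusted p = 0.0338). Tars2 read 8.16, against 8.88, 9.15 and 9.01 in WT CSC pools, and fell by 0.85 ± 0.20 (adjusted p = 0.0390). Kars, at 8.93 in the cMet KO CSC pool, differed by -0.88 ± 0.23 and did not pass (adjusted p = 0.0534). Of all genes 6.74% were called and 3.35% were lower. The medians were -0.40 over cytosolic and -0.37 over mitochondrial members, and the pool lay below all WT CSC pools for 11 cytosolic and 11 mitochondrial members, against 35% of all genes. All 3 calls were lost without WT CSC replicate 1, 2 or 3. The strain label differs between these groups. For 20 of 34 members the 28-day, Rptor KO and cMet KO CSC pools were all below all WT CSC pools of 2.5 days, against 20.9% of all genes. All these comparisons use the same WT CSC pools.

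Whether the response to injury itself differed between genotypes was tested as the difference of differences, CSC minus QSC in the knockout less that in WT. No member passed for Rptor KO, where 0% of all genes were called, and 2 cytosolic and 2 mitochondrial members had an unadjusted p under 0.05, against 4.44% of all genes. No member passed for cMet KO either, where 0.158% of all genes were called, and 5 cytosolic and 3 mitochondrial members had an unadjusted p under 0.05, against 9.52% of all genes. For Rptor KO the medians were -0.36 and -0.32, with 16 of 18 cytosolic and 14 of 15 mitochondrial members negative. Vars had the largest cytosolic value there, -0.83 ± 0.56 (adjusted p = 1.00), and Rars2 the largest mitochondrial one, -0.70 ± 0.31 (adjusted p = 1.00). For cMet KO the medians were -0.51 and -0.38, and all 18 cytosolic and all 15 mitochondrial members were negative. Vars at -1.47 ± 0.56 (adjusted p = 0.422) and Sars2 at -1.003 ± 0.32 (adjusted p = 0.323) had the largest values. A single gene's difference of responses had a median SE of 0.308, which is not an error of these medians, and both responses share the same WT pools. Both subtract the WT difference, which was positive for 17 of 18 cytosolic and 14 of 15 mitochondrial tested members. The negative signs are therefore not independent of that difference.

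**Figure D4:**
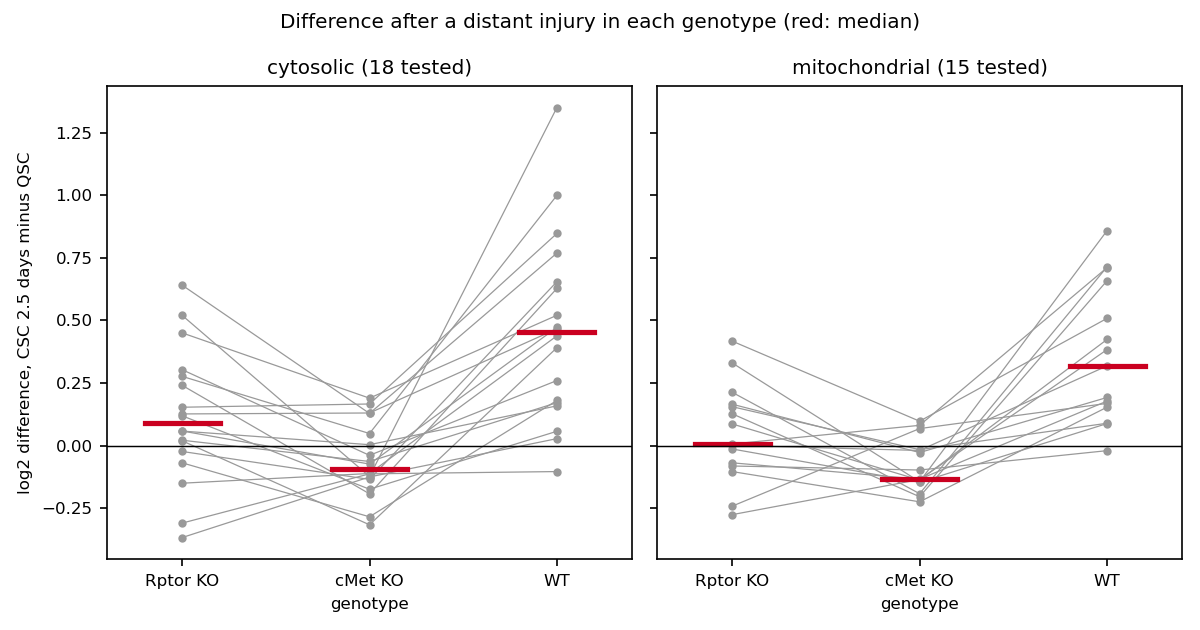
Log2 difference, CSC at 2.5 days minus QSC, of each tested synthetase gene in Rptor KO, cMet KO and WT cells, cytosolic (left) and mitochondrial (right); a line joins the values of a gene and red bars are medians. The WT medians are 0.45 and 0.32, and the medians of both knockouts lie between -0.13 and 0.09; knockout values come from single pools.

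Genes that work beside the synthetases were counted by the same test in WT CSC at 2.5 days against WT QSC, where 10.6% of all genes were higher. Of the 3 scaffold proteins of the multi-synthetase complex 2 rose, Aimp2 by 1.18 ± 0.18 (adjusted p = 0.00347) and Eef1e1 by 0.53 ± 0.14 (adjusted p = 0.0353), while Aimp1 at 0.34 did not pass (adjusted p = 0.157). Of 7 accessory genes of tRNA charging 1 rose, Aarsd1, known for clearing wrongly charged tRNA, by 0.56 ± 0.14 (adjusted p = 0.0290). In the supply of cytosolic tRNA 6 of 27 genes rose and 0 fell, with a median of 0.45. They included Polr3g, a subunit of RNA polymerase III, at 1.26 ± 0.12 (adjusted p = 0.000344), and the tRNA-modifying enzymes Trmt6 at 0.75 ± 0.17 and Pus7 at 0.84 ± 0.20. Polr3k, another polymerase III subunit, rose by 0.56 ± 0.14. None of 6 tested cytosolic elongation factors passed (median 0.08), and 0 had an unadjusted p under 0.05.

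Genes of mitochondrial translation were among the higher ones. Of 14 genes that process, modify or load mitochondrial tRNA 4 rose and 0 fell, with a median of 0.35. These were Elac2, which trims tRNA ends (0.95 ± 0.23), Mtfmt, which formylates the initiator tRNA (0.67 ± 0.16), Trit1, a tRNA-modifying enzyme (0.64 ± 0.18), and Trnt1, which adds the CCA end (0.51 ± 0.14). The list was not limited to genes that serve mitochondrial tRNA alone. Of 9 mitochondrial translation factors 4 rose and 0 fell, with a median of 0.43. Tufm, the factor that brings charged tRNA to the mitochondrial ribosome, rose by 1.68 ± 0.20 (adjusted p = 0.000918), and its exchange factor Tsfm by 0.84 ± 0.14 (adjusted p = 0.00509). Gfm1 and Gfm2, which act in translocation and ribosome recycling, rose by 1.24 ± 0.17 and 0.52 ± 0.15. Against WT CSC at 2.5 days, Tufm was lower by 1.99 ± 0.28 in the 28-day pool (limma adjusted p = 0.00431), where 6.32% of all genes were lower. It was lower by 1.62 ± 0.28 in the Rptor KO CSC pool (adjusted p = 0.0199), where 2.97% of all genes were. In the cMet KO CSC pool it was lower by 1.64 ± 0.28 (adjusted p = 0.0121), where 3.35% of all genes were. These comparisons use the same WT CSC pools as the WT difference by which Tufm was chosen, so they are not independent of it.

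Of 13 genes of amino acid transport 2 rose, Slc7a11, the cystine exchanger, by 1.06 ± 0.25 (adjusted p = 0.0204) and Slc38a1, a glutamine carrier, by 0.44 ± 0.12 (adjusted p = 0.0354), with a list median of 0.07. Of 22 other genes known as ATF4 targets 6 rose and 3 fell, against 7.36% lower among all genes, with a median of 0.11. The 6 serve amino acid synthesis and folate metabolism. Asns, which makes asparagine, rose by 2.04 ± 0.20 (adjusted p = 0.000398), Phgdh and Psat1 of serine synthesis by 1.49 ± 0.17 and 1.19 ± 0.13, and Shmt2, a mitochondrial serine hydroxymethyltransferase, by 1.43 ± 0.24. Aldh18a1 of proline synthesis rose by 0.92 ± 0.16 and Psph of serine synthesis by 0.58 ± 0.12. The 3 that fell were Ppp1r15a (-0.96 ± 0.16), Atf3 (-1.15 ± 0.22) and Ddit3 (-0.80 ± 0.20), all known as genes induced by cell stress.

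**Figure D5:**
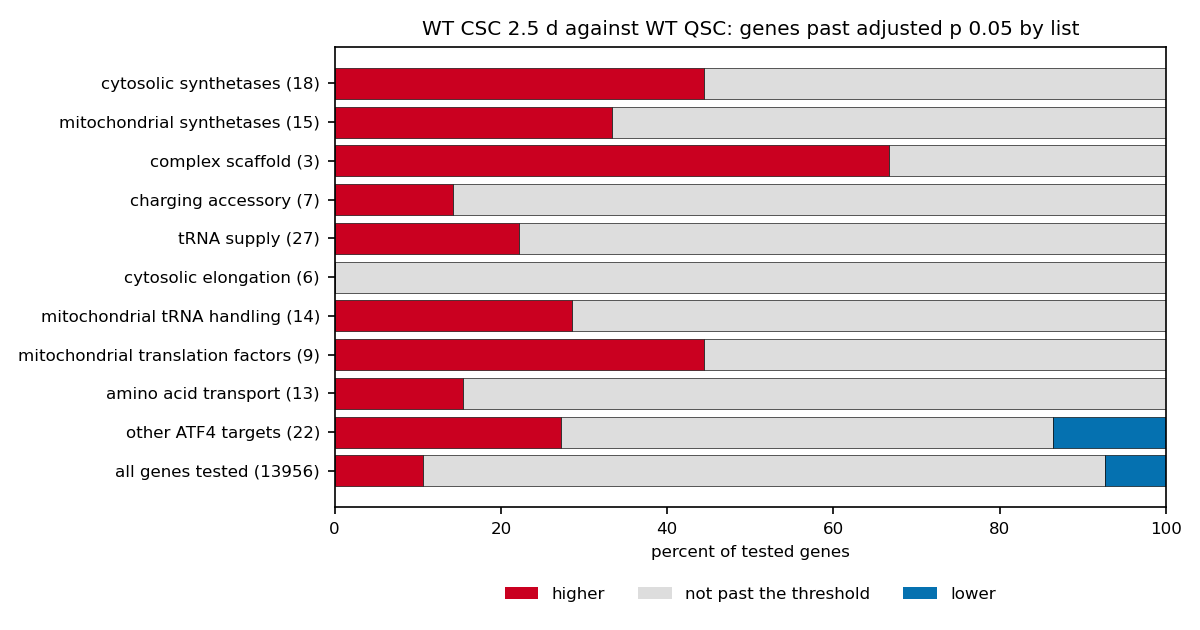
Percent of tested genes that were higher (red), lower (blue) or not past an adjusted p of 0.05 (grey) in WT CSC at 2.5 days against WT QSC, for the synthetases, the lists of neighbouring function and all 13956 genes; the number tested is in parentheses. The synthetase bars hold 8 of 18 and 5 of 15 genes in red, against 10.6% for all genes, and the other ATF4 targets alone among these lists have a blue part.

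Markers of muscle stem cells and of some other cell types differed between the same groups. Of 15 muscle stem cell markers 6 were lower in WT CSC than in WT QSC, the largest falls being those of Chodl (-1.28 ± 0.17), Calcr (-1.16 ± 0.23) and Pax7 (-1.07 ± 0.25; adjusted p = 0.0183), and 0 were higher. The mean over these 15 markers was 10.92 to 11.07 in WT CSC pools and 11.43 to 11.83 in WT QSC pools, which did not overlap. The mean over 13 endothelial markers was 7.66 to 8.14 in WT CSC pools and 8.79 to 9.49 in WT QSC pools, and 11 of 13 were lower in WT CSC. Of 10 tested fibro-adipogenic markers 5 were lower, and of 9 pericyte and smooth muscle markers 5 were lower. Of all genes 7.36% were lower. None of 11 tested macrophage markers passed in this comparison. The mean over 14 markers of mature fibres was 8.36 to 8.70 in WT CSC pools and 7.40 to 8.30 in WT QSC pools. Of 11 tested fibre markers 4 were higher, against 10.6% of all genes. These were Eno3 by 3.59 ± 0.17, Actn3 by 1.38 ± 0.24, Tnnt3 by 0.98 ± 0.24 and Tnni2 by 0.63 ± 0.16. The others tested, among them Acta1 (0.42) and Ckm (-0.04), did not pass. In the single pools the mean over fibre markers was 7.41 at 28 days, 7.35 in Rptor KO CSC, 7.45 in cMet KO CSC, 7.36 in Rptor KO QSC and 7.61 in cMet KO QSC. In TSC1 KO QSC it was 8.53, within the range of the WT CSC pools. Macrophage markers averaged 8.86 in Rptor KO CSC and 7.15 to 7.28 in WT CSC pools, and endothelial markers averaged 9.90 in cMet KO CSC and 7.66 to 8.14 in WT CSC pools. Over the 12 pools Pecam1, an endothelial marker, ranged between 7.72 and 10.20, Acta1, a fibre marker, between 8.96 and 11.75, and Adgre1, a macrophage marker, between 5.70 and 8.18. What part these marker differences have in the synthetase differences was not tested, and in such bulk RNA fewer cells of a type and less RNA per cell cannot be told apart.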

How the data were processed

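The deposited values are log2 probeset signals that the authors obtained with Affymetrix Expression Console and RMA (per the submitters' processing notes). Its version, library files and the genome build were not given in the sources used here. RMA puts all arrays on 1 distribution, so values are relative to each array's other genes, and levels of different probesets are not comparable.

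Of 35556 probesets, 21789 had 1 gene symbol and 1621 several; the brightest probeset stood for a gene. Arrays of a pool are technical replicates and were averaged. A model with 8 group means was fitted to 12 pools with lmFit and eBayes (limma 3.58.1, R 4.3.3), with Benjamini-Hochberg adjustment over 13956 genes whose mean was at or above the 30th percentile and 0.05 as threshold. The 4 residual degrees of freedom all derive from WT QSC and WT CSC pools (prior 5.01). The number of pools limits the precision: a difference had a median SE of 0.154 between 3 and 3 pools, 0.218 between 1 and 3 and 0.267 between 1 and 1. The fit was tested on simulated data.

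Members and gene lists were chosen with earlier results of these data known; 1 listed member is not reported here. Values in each pool are given for the 8 cytosolic and 8 mitochondrial members with the smallest p in WT CSC at 2.5 days against WT QSC, those past the threshold elsewhere, and the largest difference per compartment in each comparison with single pools; other values were added for contrast after they were seen. From each other list up to 4 genes with the smallest p are named, and further genes past the threshold were added. Figures used matplotlib 3.10.9.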

Additional observations from a re-analysis of the deposited data

How the results depend on the processing

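In 16 alternative analyses the medians over WT CSC at 2.5 days minus WT QSC stayed positive, at 0.35 to 0.49 for cytosolic and 0.25 to 0.38 for mitochondrial members. Kars and Sars2 passed in all 16, Rars and Vars in 15, Mars1, Rars2 and Tars2 in 14, Wars in 13, Iars2 in 11, Farsb and Gars in 10, Yars2 in 7 and Qars in 6. These tallies include the fit to the WT pools alone, which called 2510 genes, as did the main fit. All residual degrees of freedom derive from those pools, so it was no separate check. Another alternative, the mean of all probesets, changes the values of Iars alone among the members. Leaving out a WT pool gave 2 to 6 cytosolic and 1 to 4 mitochondrial members higher. WT CSC at 28 days minus 2.5 days then had 0 to 4 cytosolic and 0 to 1 mitochondrial members lower, cMet KO CSC minus WT CSC had 0 to 4 and 0 to 3, and Rptor KO CSC minus WT CSC had 0 to 3 cytosolic members lower. The lowest counts for WT CSC at 2.5 days minus WT QSC came without a WT CSC replicate, and so did the lowest counts over all genes. The cause was not tested.

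With quantile normalization again, 2 cytosolic members were lower at 28 days than at 2.5 days and 2 in cMet KO CSC against WT CSC. With arrays centred on their medians, 0 mitochondrial members were lower at 28 days. With no filter on dim genes that count was 0, and 0 cytosolic members were lower in cMet KO CSC. With a filter at the 50th percentile 2 cytosolic members were lower at 28 days. With trend and robust options 1 mitochondrial member was lower in cMet KO CSC. With all arrays and the pool as a random block, 5 cytosolic and 3 mitochondrial members were lower at 28 days, 5 cytosolic members in cMet KO CSC, and 4 cytosolic and 1 mitochondrial in Rptor KO CSC against WT CSC, and 1 mitochondrial member was higher in TSC1 KO QSC against Rptor KO QSC. With the first array of each pool alone, 0 mitochondrial members were lower at 28 days, 1 cytosolic in Rptor KO CSC, and 2 cytosolic and 1 mitochondrial in cMet KO CSC. The causes were not tested.

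Values near 0 changed sign. Wars2 became 0.013 with centring, 0.11 without WT QSC replicate 1, and 0.044 and 0.023 without WT CSC replicates 2 and 3; its lowest value was -0.15. Cars became -0.07 and -0.08 without WT QSC replicates 1 and 2 and -0.15 without WT CSC replicate 2, and 0.22 at most. Nars became -0.038 without WT QSC replicate 1, and -0.056 and -0.021 without WT CSC replicates 2 and 3, and 0.25 at most. Hars2 became -0.048 without WT QSC replicate 2, and was 0.27 at most.

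Of the same-numbered WT CSC and WT QSC pools, those of replicate 1 deviated together and those of replicates 2 and 3 did not (correlations 0.32, -0.03 and -0.03), so the numbers were not taken to pair them. With the replicate block, 7 cytosolic and 5 mitochondrial members were higher, and Qars no longer passed.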

Other observations

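The probeset that Aars shares with Exosc6, a subunit of the RNA exosome, cannot be given to either gene. It read 10.21, 10.59 and 10.54 in WT CSC pools at 2.5 days, against 10.38, 10.16 and 10.50 in WT QSC pools, and these groups overlapped. The 28-day pool read 10.33, and the knockout pools lay between 10.14 (Rptor KO CSC) and 10.46 (cMet KO QSC).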
